A study of Mus musculus with 9 samples.

Results

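The collagen genes of mouse R1 embryonic stem cells were examined by RNA-seq in day 6 embryoid bodies. Members were the rows whose symbol reads Col, a number, a and a number, apart from Col4a1 and Col4a2, which gave 42 of the 22322 genes listed. By structure they comprised 11 fibrillar collagens, 7 network collagens and 24 others. The others were 9 FACITs (fibril-associated collagens with an interrupted triple helix), 7 beaded filament or anchoring fibril collagens, 4 membrane collagens, 2 multiplexins and 2 unclassed genes. Enough reads for a test were present for 24 members, and the remaining 18 are given by their counts.

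The 3 groups of 3 libraries were sh-Pfkp, sh-Lin41 and sh-ctrl, named after the short hairpin RNA the cells carried. The sh-Pfkp hairpin targets Pfkp, the platelet isoform of the glycolytic enzyme phosphofructokinase. The sh-Lin41 hairpin targets Lin41, an RNA-binding protein of stem cells whose gene is Trim71. All groups were R1 cells grown with LIF on gelatin, a denatured collagen, and then aggregated for 6 days in LIF-free suspension culture. The genotype labels read Pfkp knockdown for sh-Pfkp, Lin41 knockdown for sh-Lin41 and WT for sh-ctrl. With 1 hairpin name per target and no rescue in the labels, knockdown of the target and any other effect of that hairpin cannot be told apart. Whether the 3 libraries of a group are separate cultures is not said, so the p-values cover their spread alone, and that spread may be technical.

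Collagens are secreted proteins of 3 chains wound into a triple helix. Fibrillar collagens assemble into the tensile fibrils of connective tissue, network collagens form sheets in basement membranes, and FACITs decorate fibril surfaces. Chains are hydroxylated and folded in the endoplasmic reticulum, trimmed after secretion and crosslinked by lysyl oxidases. Collagen I pairs chains encoded by Col1a1 and Col1a2, and it is abundant in fibroblasts and bone, whereas embryonic stem cells make little of it.

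Total counts per library lay between 15495194 and 20607683, and 13158 genes passed the filter on low counts. Pfkp had a mean of 34.0 ± 0.538 FPKM in sh-Pfkp, 75.1 ± 2.08 in sh-Lin41 and 81.5 ± 1.1 in sh-ctrl, and Trim71 had 36.9 ± 0.639, 17.3 ± 0.560 and 29.1 ± 0.533 FPKM in the same order (SD, n = 3). All 12 pluripotent cell markers of a list were expressed, and their summed level was 5150 to 5220 CPM in sh-Pfkp, 6430 to 6470 in sh-Lin41 and 5570 to 5660 in sh-ctrl. Here CPM are read counts scaled to library size and FPKM are fragments scaled to both library size and gene length, the scale on which genes of different length were compared.

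Per length, 1 of the 42 members, which leave out Col4a1 and Col4a2, stood far above the rest. Col18a1 (ENSMUSG00000001435), a basement membrane proteoglycan core that releases endostatin, had 59.5, 58.69 and 60.05 FPKM in sh-Pfkp, 56.34, 54.11 and 56.25 in sh-Lin41, and 70.53, 63.25 and 64.72 in sh-ctrl. It held 75.1 to 76.0% of the family's counts in sh-Pfkp libraries, 75.0 to 75.6% in sh-Lin41 and 77.7 to 79.9% in sh-ctrl, with Wilson 95% intervals reaching from 74.3 to 77.1%, from 74.0 to 76.6% and from 76.7 to 80.9%. The intervals cover counting error only.

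Next in level came Col9a2 (ENSMUSG00000028626), a FACIT chain known from cartilage, with 3.84, 3.29 and 3.27 FPKM in sh-Pfkp, 3.55, 3.82 and 3.81 in sh-Lin41, and 4.15, 4.02 and 4.57 in sh-ctrl. Col5a1 (ENSMUSG00000026837), a chain of the minor fibrillar collagen that starts fibril assembly, had 2.86, 3.18 and 3.0 FPKM in sh-Pfkp, 4.36, 4.37 and 4.07 in sh-Lin41, and 3.41, 2.85 and 3.35 in sh-ctrl. The sh-Lin41 libraries were highest for Col5a1, and the sh-Pfkp and sh-ctrl libraries overlapped on this scale.

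By the mean over all 9 libraries, further fibrillar genes known from cartilage followed, each under 1.2 FPKM in every library. In sh-Pfkp alone the order differed. Col3a1, Col1a1 and Col1a2 had means of 1.52, 1.07 and 1.04 FPKM there, above Col27a1, Col11a1 and Col2a1 at 0.897, 0.737 and 0.603. Col27a1 (ENSMUSG00000045672) had 0.91, 1.0 and 0.78 FPKM in sh-Pfkp, 1.18, 1.11 and 0.93 in sh-Lin41, and 0.95, 0.91 and 0.99 in sh-ctrl. Col11a1 (ENSMUSG00000027966) had 1.01, 0.62 and 0.58 FPKM in sh-Pfkp, 0.7, 0.53 and 0.65 in sh-Lin41, and 0.57, 0.75 and 0.71 in sh-ctrl. Col2a1 (ENSMUSG00000022483), the main fibril collagen of cartilage, had 0.57, 0.66 and 0.58 FPKM in sh-Pfkp, 0.55, 0.67 and 0.64 in sh-Lin41, and 0.75, 0.68 and 0.77 in sh-ctrl. Col27a1, Col11a1 and Col2a1 did not pass the test against sh-ctrl, with edgeR adjusted p between 0.242 and 0.82 in sh-Pfkp and between 0.109 and 0.871 in sh-Lin41. Of 12 chondrocyte and osteoblast markers, 3 had enough reads for a test. Alpl, a phosphatase of bone that embryonic stem cells also express, had 45.3 ± 1.62 FPKM in sh-Pfkp, 36.9 ± 1.47 in sh-Lin41 and 44.9 ± 1.8 in sh-ctrl (SD, n = 3), and it was lower in sh-Lin41 by a log2 change of -0.29 (SE 0.0348, adjusted p = 2.12e-08 by edgeR). Acan, the cartilage proteoglycan aggrecan, had 0.617 ± 0.0833 FPKM in sh-Pfkp, 0.747 ± 0.0945 in sh-Lin41 and 0.77 ± 0.0265 in sh-ctrl, and it was lower in sh-Pfkp at -0.48 (SE 0.164, adjusted p = 0.0126 by edgeR). Sox9, a regulator of cartilage, had 4 counts in sh-Pfkp, 1 in sh-Lin41 and 2 in sh-ctrl.

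**Figure D1:**
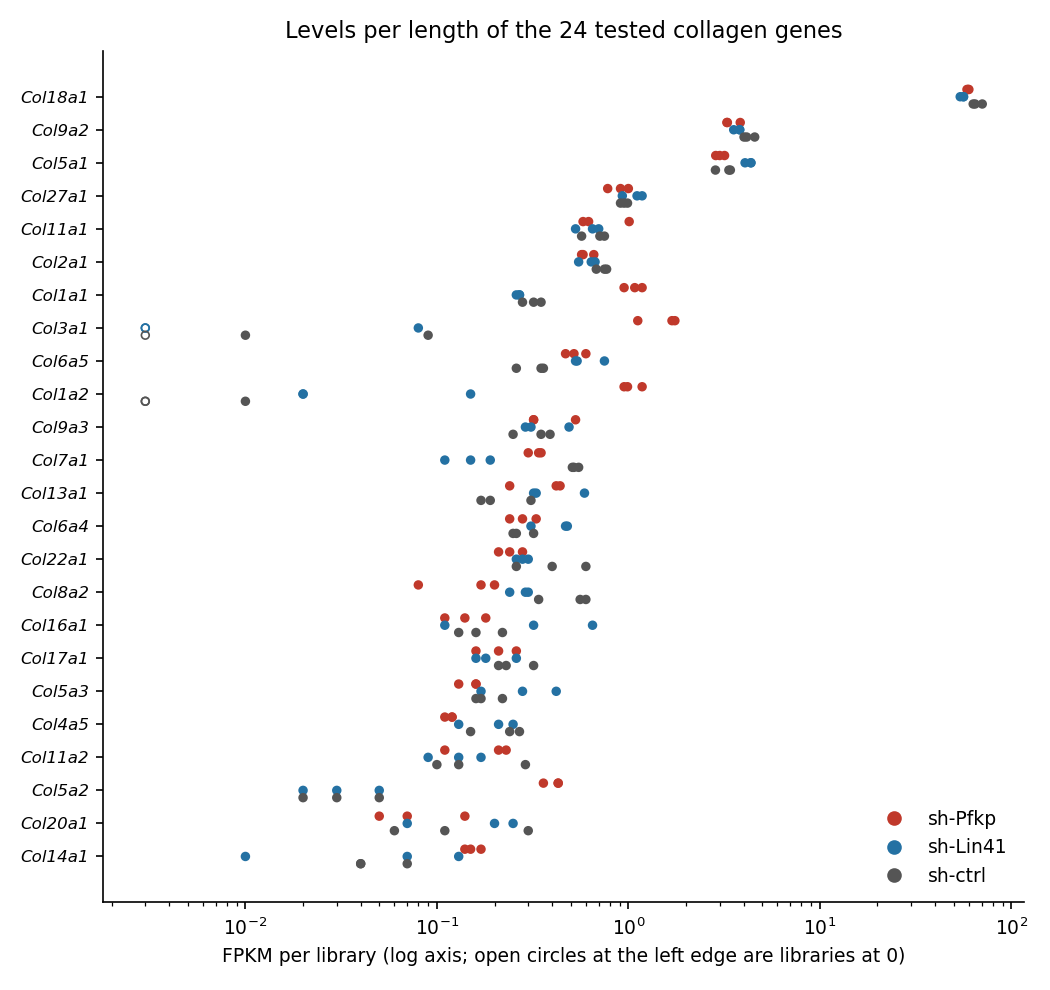
FPKM of the 24 tested collagen genes in each of the 9 libraries, on a log axis, with sh-Pfkp above sh-Lin41 and sh-ctrl in each row and genes ordered by mean level. Col18a1 lies between 54.11 and 70.53 FPKM, and every other gene lies under 5 FPKM.

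In sh-Pfkp against sh-ctrl, 6 of 24 tested collagens were higher and 6 were lower at an edgeR adjusted p under 0.05 (quasi-likelihood test, Benjamini-Hochberg over all genes). Of all genes tested, 28.3% were called higher and 28.3% lower, 56.6% in either direction. The family's calls include Col1a2, Col3a1, Col5a2 and Col14a1, whose reads let them pass the filter through sh-Pfkp alone. Even with these counted, the family's share of calls was not above that of all genes, and no closer comparison can be drawn from it. The median log2 fold change of the tested collagens was -0.0023, against -0.005 over all genes. The higher members were Col1a1, Col1a2, Col3a1, Col5a2, Col14a1 and Col6a5. The lower members were Col18a1, Col5a1, Col7a1, Col8a2, Col4a5 and Col9a2. At 2-fold or more, 5 members were higher (background 2.26%) and 1 was lower (background 4.26%). Of those 5, Col1a2, Col3a1, Col5a2 and Col14a1 passed the filter on low counts through the sh-Pfkp libraries alone. They had to lie higher there, by an amount that the filter does not set. Their number is a description with no bearing on the family as a whole.

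Sh-Lin41 against sh-ctrl gave fewer collagen calls, 3 higher and 3 lower of 24. The background was 26.9% higher, 27.3% lower and 54.3% in either direction. Col1a2, Col5a1 and Col6a5 were higher, and Col18a1, Col7a1 and Col8a2 were lower. The median log2 change was -0.099 for the tested collagens and 0.0043 for all genes. Without regard to sign, the median was 0.3221 for the tested collagens and 0.2043 for all genes. Few reads widen such estimates, with an SE of 1.26 for Col3a1 and 1.02 for Col1a2. These medians therefore do not compare the size of the changes. At 2-fold or more, 1 member was higher (background 2.04%) and 1 lower (background 2.22%). Both comparisons share the 3 sh-ctrl libraries.

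**Figure D2:**
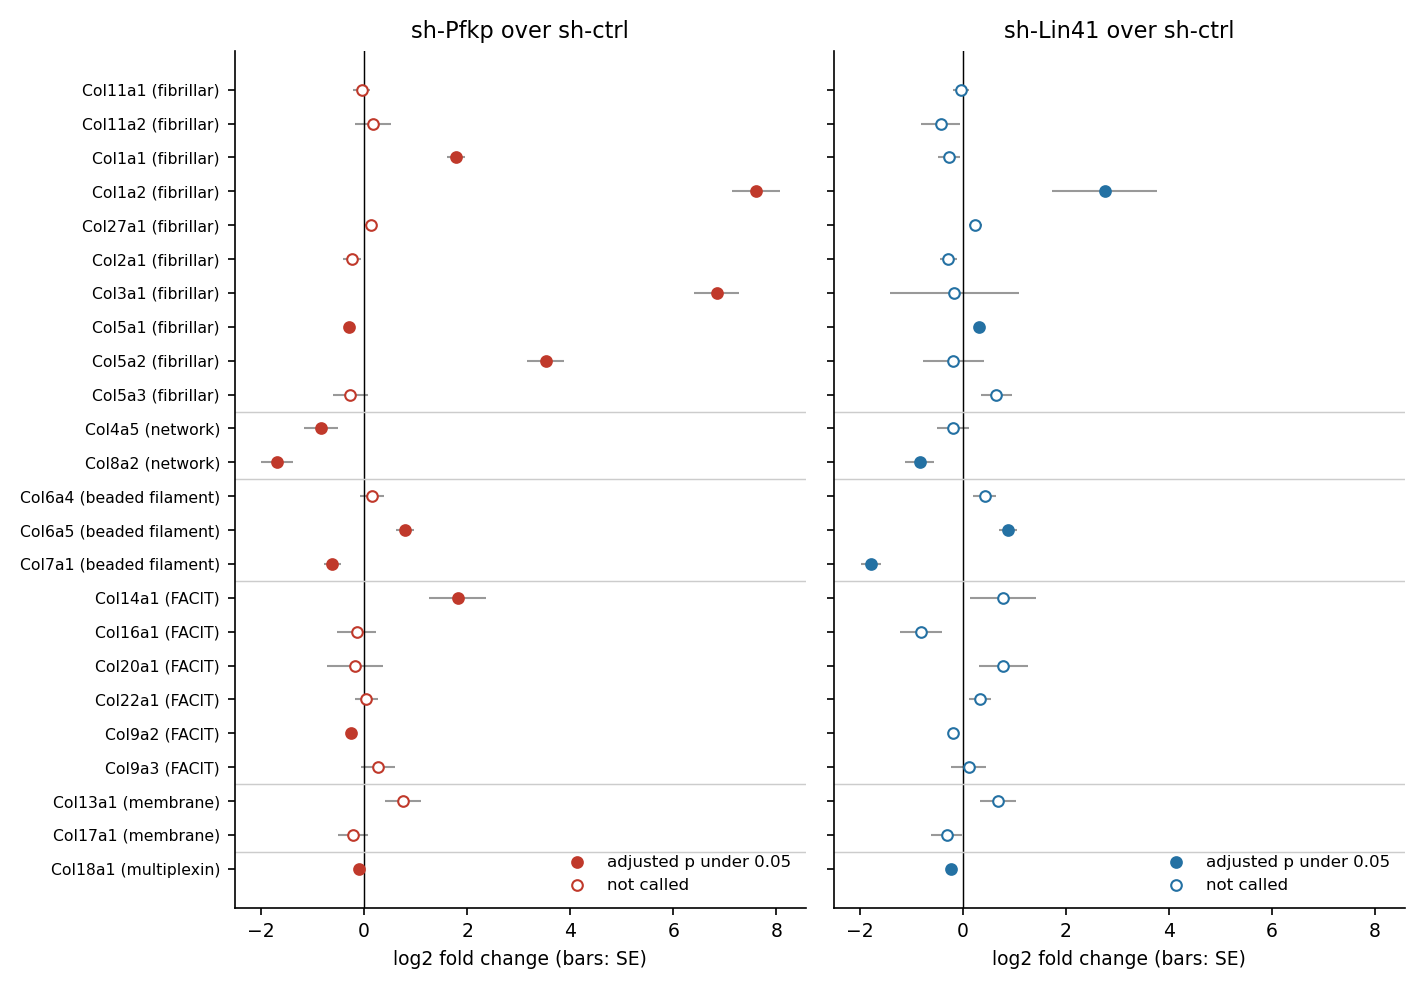
Log2 fold changes (points) with standard errors (bars) of the 24 tested collagens in sh-Pfkp over sh-ctrl (left) and sh-Lin41 over sh-ctrl (right), grouped by class, with filled points at an edgeR adjusted p under 0.05. Col1a2, Col3a1, Col5a2, Col1a1 and Col14a1 lie above 1 in sh-Pfkp, and the values of Col1a2 and Col3a1 depend on the prior count because sh-ctrl held 1 and 2 reads.

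Of 10 tested fibrillar collagens, 4 were higher in sh-Pfkp (Col1a1, Col1a2, Col3a1 and Col5a2), 1 was lower (Col5a1) and 5 were not called. Over all genes, 28.3% were higher, 28.3% lower and 56.6% called in either direction. Col1a2, Col3a1 and Col5a2 passed the filter on low counts through sh-Pfkp alone and had to be higher there. The count is therefore a description and not a result for the fibrillar class. Col5a2 was the only 1 of the 3 collagen V chains that was higher. Col1a1 (ENSMUSG00000001506) had 124, 140 and 99 counts in sh-Pfkp, 31, 32 and 29 in sh-Lin41, and 33, 26 and 38 in sh-ctrl. Every sh-Pfkp library lay above the other 6 libraries. The means were 6.49 ± 0.710 CPM in sh-Pfkp, 1.57 ± 0.0276 in sh-Lin41 and 1.87 ± 0.206 in sh-ctrl (SD, n = 3). Col1a1 was 3.45-fold higher in sh-Pfkp than in sh-ctrl, a log2 change of 1.78 (SE 0.169, adjusted p = 1.37e-10 by edgeR). In sh-Lin41 it did not pass the test, with a log2 change of -0.27 (SE 0.213, adjusted p = 0.30 by edgeR). As these were bulk libraries, more cells that express a gene and more RNA per cell cannot be told apart here or below.

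Col1a2 (ENSMUSG00000029661), the partner chain, had 103, 94 and 86 counts in sh-Pfkp, 6, 2 and 2 in sh-Lin41, and 0, 1 and 0 in sh-ctrl. Summed and scaled by depth, this was a ratio of 261 between sh-Pfkp and sh-ctrl, with a 95% counting interval of 46.5 to 10400 (edgeR adjusted p = 5.26e-15). The sh-Lin41 libraries did not overlap the sh-ctrl libraries either, at 10 counts against 1. Their ratio was 8.75 (95% counting interval 1.24 to 380), with an edgeR adjusted p of 0.0234. That call was lost without sh-Lin41 1 (edgeR adjusted p = 0.151), without sh-ctrl 1 (adjusted p = 0.0851) and without sh-ctrl 3 (adjusted p = 0.0898), and on log2(FPKM + 1) with limma (adjusted p = 0.363). The authors' own test gives Col1a2 in sh-Lin41 a p of 0.0788 and an FDR of 1. Col5a3, at a larger p of 0.106 by that test, has an FDR of 0.201, so the FDR of 1 cannot be compared with other genes.

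Col3a1 (ENSMUSG00000026043), whose homotrimer co-assembles with collagen I in skin and vessel walls, had 111, 105 and 76 counts in sh-Pfkp, 0, 2 and 0 in sh-Lin41, and 0, 1 and 1 in sh-ctrl. The ratio between sh-Pfkp and sh-ctrl was 135 (95% counting interval 37.0 to 1120, edgeR adjusted p = 1.27e-14). Between sh-Lin41 and sh-ctrl, with 2 counts each, no fold can be given.

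Col5a2 (ENSMUSG00000026042), a second chain of collagen V, had 46, 57 and 50 counts in sh-Pfkp, 6, 3 and 3 in sh-Lin41, and 4, 2 and 6 in sh-ctrl. It was 11.5-fold higher in sh-Pfkp than in sh-ctrl, a log2 change of 3.52 (SE 0.358, adjusted p = 6.2e-10 by edgeR). The sh-Lin41 and sh-ctrl libraries overlapped, with 12 counts in each group (edgeR adjusted p = 0.813). Col5a2 and Col3a1 are neighbours on chromosome 1 in RefSeq's GRCm38.p6 gene order, and each passed the filter on low counts through sh-Pfkp alone. Of the other neighbouring pairs among the members, Col6a5 with Col6a4 was the only 1 with both genes tested, so calls of neighbours cannot be compared.

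**Figure D3:**
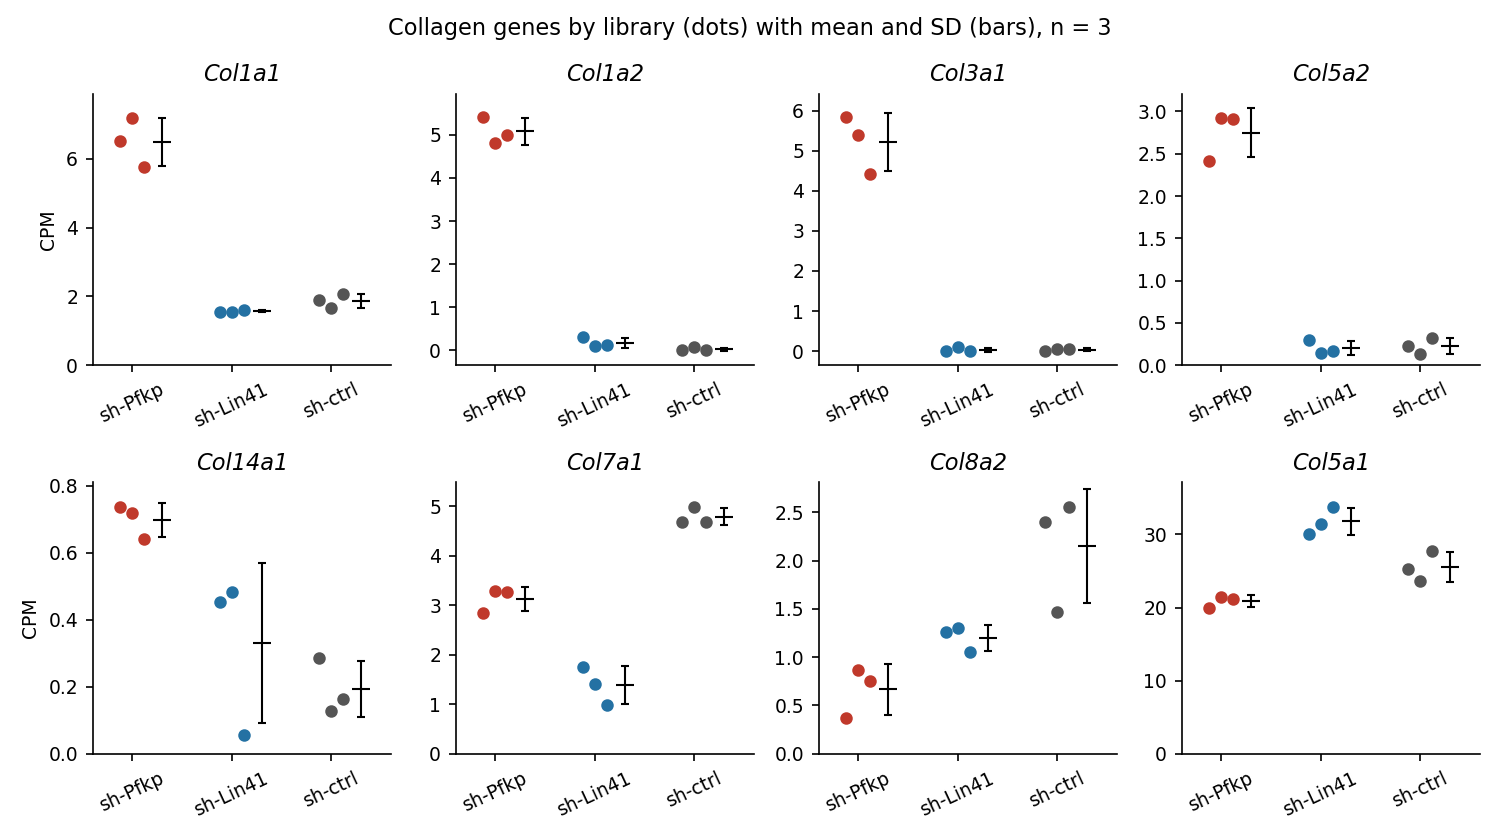
CPM per library (dots) with the mean and SD of 3 libraries (bars) for the 8 collagens with the largest or opposite calls, sh-Pfkp left of sh-Lin41 and sh-ctrl. Col1a1, Col1a2, Col3a1 and Col5a2 stand apart in sh-Pfkp, Col7a1 is lowest in sh-Lin41, and Col5a1 is highest in sh-Lin41.

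The sequences just before the annotated starts of Col1a2 and Col3a1, which were higher together in sh-Pfkp, and of Col7a1, lower in each knockdown, are shown with 3 common promoter elements in capitals. They are the 250 bases upstream in RefSeq GRCm38.p6, on the + strand, at chr6:4505368-4505617, chr1:45311288-45311537 and chr9:108953336-108953585. The elements searched on both strands were the CCAAT box (CCAAT or ATTGG), the TATA box (TATAAA or TTTATA) and the GC box (GGGCGG or CCGCCC).
Col1a2: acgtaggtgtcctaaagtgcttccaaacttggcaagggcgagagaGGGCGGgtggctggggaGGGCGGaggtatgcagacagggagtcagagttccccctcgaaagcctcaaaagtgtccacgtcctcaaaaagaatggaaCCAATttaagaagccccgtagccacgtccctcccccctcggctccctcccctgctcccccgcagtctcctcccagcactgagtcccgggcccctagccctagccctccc
Col3a1: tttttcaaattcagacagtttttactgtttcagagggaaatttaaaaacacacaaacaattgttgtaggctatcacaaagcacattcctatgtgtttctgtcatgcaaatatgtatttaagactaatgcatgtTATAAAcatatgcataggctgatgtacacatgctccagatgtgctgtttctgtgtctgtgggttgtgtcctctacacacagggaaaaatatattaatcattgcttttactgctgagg
Col7a1: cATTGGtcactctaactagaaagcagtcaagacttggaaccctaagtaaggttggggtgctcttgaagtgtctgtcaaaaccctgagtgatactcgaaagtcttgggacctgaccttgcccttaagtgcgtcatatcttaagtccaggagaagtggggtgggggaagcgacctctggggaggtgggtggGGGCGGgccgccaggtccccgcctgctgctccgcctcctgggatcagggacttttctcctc
Col1a2 held 2 GC boxes, at 205 and 188 bases before the start, and 1 CCAAT box at 109 bases. Col3a1 held 1 TATA box at 117 bases and neither of the other elements, and its window had 35.2% G and C, against 62.0% in Col1a2 and 56.4% in Col7a1. Col7a1 held 1 CCAAT box on the minus strand at 249 bases and 1 GC box at 61 bases. Col1a2 and Col3a1 had none of these elements in common in the windows. Over 36 windows of 33 members, 58.3% held a GC box, 30.6% a CCAAT box and 13.9% a TATA box, and over all 32851 windows of that length 32.7%, 33.8% and 12.4% held them. A match is a run of letters and not a measured binding site.

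Partner chains moved unevenly. The ratio of Col1a2 to Col1a1 on the FPKM scale was 0.917, 1.0 and 1.0 in sh-Pfkp, 0.556, 0.0769 and 0.0741 in sh-Lin41, and 0, 0.0357 and 0 in sh-ctrl. Collagen I is usually built from both chains, but no ratio of their RNAs is taken here as the matched state. A ratio near 1 was present in the sh-Pfkp libraries and in none of the other 6. The 0.556 of sh-Lin41 1 rested on 6 reads of Col1a2. For collagen V, the ratio of Col5a2 to Col5a1 was 0.126, 0.135 and 0.143 in sh-Pfkp, 0.0115, 0.00458 and 0.00737 in sh-Lin41, and 0.0088, 0.00702 and 0.0149 in sh-ctrl. The sh-Pfkp libraries were the highest for each ratio, while sh-Lin41 and sh-ctrl overlapped for collagen V. Where a chain has few reads its FPKM is coarse, since a single read of Col3a1 was worth 0.09 FPKM in sh-ctrl 2 and 0.01 FPKM in sh-ctrl 3.

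**Figure D4:**
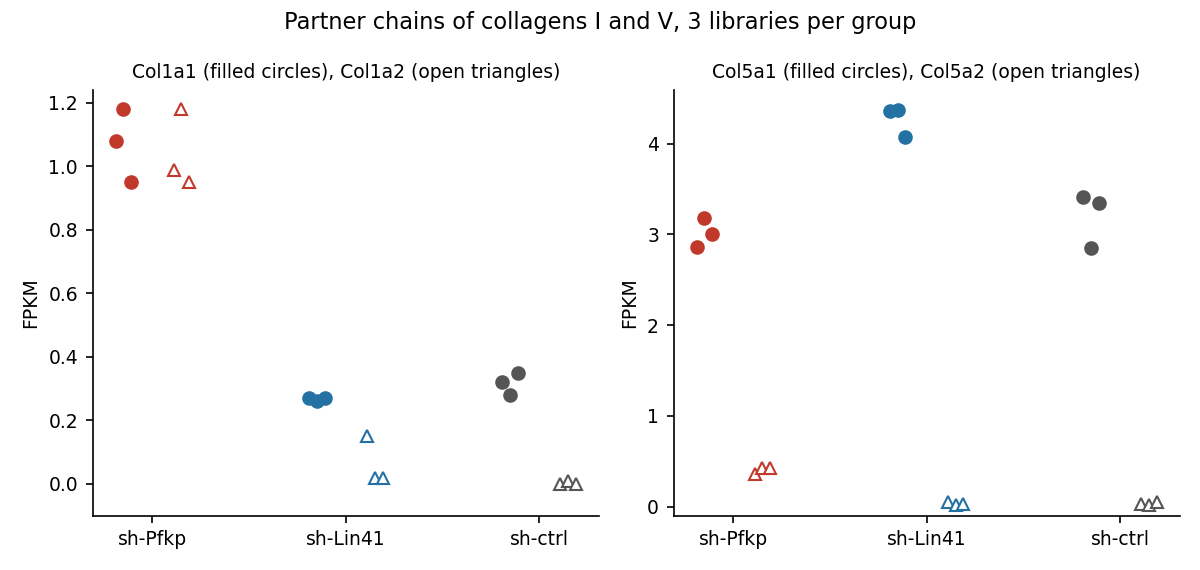
FPKM per library of the partner chains of collagen I (left) and collagen V (right), with the first chain as filled circles and the second as open triangles, for sh-Pfkp, sh-Lin41 and sh-ctrl. Col1a2 reaches the level of Col1a1 in sh-Pfkp, while Col5a2 stays at or under 0.43 FPKM in every library.

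Col5a1 itself was called in opposite directions, and no other member was. It had 378, 420 and 364 counts in sh-Pfkp, 600, 651 and 613 in sh-Lin41, and 442, 371 and 509 in sh-ctrl. Scaled by depth these were 20.9 ± 0.861, 31.8 ± 1.84 and 25.6 ± 2.04 CPM (SD, n = 3), with no overlap between any of the groups. The log2 change was -0.30 (SE 0.0682, adjusted p = 0.0004 by edgeR) in sh-Pfkp and 0.31 (SE 0.0633, adjusted p = 0.000131 by edgeR) in sh-Lin41. On log2(FPKM + 1) with limma the sh-Pfkp call was lost, with a difference of -0.06 (adjusted p = 0.504). Exons of Col5a1 overlap those of a pair of noncoding genes on the opposite strand in GENCODE M21, and whether the counting used strand is not given in the sources used here.

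The remaining fibrillar collagens did not pass the test against sh-ctrl. Col5a3, the third chain of collagen V, had 15, 19 and 17 counts in sh-Pfkp, 50, 21 and 31 in sh-Lin41, and 18, 15 and 24 in sh-ctrl. Col11a2 had 9 to 28 counts in every library, and Col24a1 had 1 count in all. Summed over the fibrillar class, the level was 53.4 to 58.7 CPM in sh-Pfkp, 48.6 to 52.3 in sh-Lin41 and 40.2 to 48.4 in sh-ctrl. Without Col5a1 the sums were 32.2 to 37.1, 17.2 to 20.3 and 16.4 to 20.6 CPM, so that sh-Lin41 and sh-ctrl overlapped.

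Of 7 network members, which leave out Col4a1 and Col4a2, only Col8a2 and Col4a5 had enough reads for a test. Both were lower in sh-Pfkp, where 28.3% of all genes were lower, and 2 genes do not describe the class. Col8a2 (ENSMUSG00000056174), a short-chain collagen of the lattice under the corneal endothelium, had 7, 17 and 13 counts in sh-Pfkp, 25, 27 and 19 in sh-Lin41, and 42, 23 and 47 in sh-ctrl. The groups did not overlap in CPM. Its log2 change was -1.69 (SE 0.312, adjusted p = 2.59e-05 by edgeR) in sh-Pfkp and -0.84 (SE 0.276, adjusted p = 0.0106 by edgeR) in sh-Lin41. The sh-Lin41 call was lost without sh-ctrl 3 (edgeR adjusted p = 0.0755). Col4a5, an X-linked chain of basement membrane collagen IV, had 14, 14 and 13 counts in sh-Pfkp, 26, 28 and 14 in sh-Lin41, and 29, 13 and 26 in sh-ctrl. Its log2 change in sh-Pfkp was -0.83 (SE 0.333, adjusted p = 0.0332 by edgeR), and this call was lost in DESeq2 (adjusted p = 0.0781) and without any of sh-Pfkp 1, 2 or 3, sh-ctrl 1 or sh-ctrl 3 (edgeR adjusted p between 0.0657 and 0.177). Col8a1, the partner of Col8a2, had too few reads for the test and ran the other way, with 9, 4 and 8 counts in sh-Pfkp, 0 in each sh-Lin41 library, and 0, 0 and 1 in sh-ctrl. Its ratio between sh-Pfkp and sh-ctrl was 19.4 (95% counting interval 3.12 to 802).

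Col7a1 (ENSMUSG00000025650) encodes the anchoring fibrils that fasten epithelial basement membranes to the tissue beneath. It had 54, 64 and 56 counts in sh-Pfkp, 35, 29 and 18 in sh-Lin41, and 82, 78 and 86 in sh-ctrl. No groups overlapped, and sh-Lin41 was the lowest. The log2 change was -0.61 (SE 0.170, adjusted p = 0.0027 by edgeR) in sh-Pfkp and -1.78 (SE 0.194, adjusted p = 2.68e-09 by edgeR) in sh-Lin41. Between the knockdowns, sh-Pfkp was 2.24-fold higher than sh-Lin41 (edgeR adjusted p = 1.42e-05).

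Of the beaded filament collagens, Col6a5 was higher in each knockdown. It had 99, 93 and 77 counts in sh-Pfkp, 92, 92 and 115 in sh-Lin41, and 55, 46 and 42 in sh-ctrl, and both knockdowns lay above sh-ctrl with no overlap. The log2 change was 0.79 (SE 0.173, adjusted p = 0.00023 by edgeR) in sh-Pfkp and 0.87 (SE 0.170, adjusted p = 6.01e-05 by edgeR) in sh-Lin41. Its neighbour Col6a4 did not pass the test, with edgeR adjusted p of 0.588 and 0.106. The classical collagen VI chains Col6a1, Col6a2 and Col6a3 were all too low to test. Col6a1 had 8, 12 and 9 counts in sh-Pfkp, 6, 2 and 0 in sh-Lin41, and 4, 0 and 0 in sh-ctrl, while Col6a2 had 6 to 11 counts in every library. With no filter on low counts, Col6a1 and Col8a1 were also called higher in sh-Pfkp than in sh-ctrl, with edgeR adjusted p of 0.00311 and 0.00297.

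Among the FACITs, Col14a1 (ENSMUSG00000022371), which binds collagen I fibrils, had 14, 14 and 11 counts in sh-Pfkp, 9, 10 and 1 in sh-Lin41, and 5, 2 and 3 in sh-ctrl. The sh-Pfkp libraries lay above all others, and sh-Lin41 overlapped sh-ctrl. Its log2 change in sh-Pfkp was 1.81 (SE 0.561, adjusted p = 0.00662 by edgeR), and on log2(FPKM + 1) with limma the call was lost (adjusted p = 0.0697). Col9a2 was lower in sh-Pfkp by a log2 change of -0.25 (SE 0.0973, adjusted p = 0.0312 by edgeR), a call lost in DESeq2 (adjusted p = 0.0829) and without sh-Pfkp 2, sh-Pfkp 3 or sh-ctrl 3 (edgeR adjusted p = 0.117, 0.109 and 0.157). Col16a1, Col20a1, Col22a1 and Col9a3 were not called in either knockdown, with log2 fold changes between -0.80 and 0.79.

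Col18a1, the most abundant of the members, was lower by a small and tightly measured amount. The means were 272 ± 4.39 CPM in sh-Pfkp, 249 ± 8.41 in sh-Lin41 and 292 ± 9.19 in sh-ctrl (SD, n = 3). The log2 change was -0.10 (SE 0.0257, adjusted p = 0.00104 by edgeR) in sh-Pfkp and -0.23 (SE 0.0258, adjusted p = 4.39e-09 by edgeR) in sh-Lin41. Membrane collagens Col13a1 and Col17a1 were not called, with edgeR adjusted p between 0.0665 and 0.55.

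The 18 members that were not tested had at most 13 counts in a library. Col19a1 was at 0 in all libraries, 5 members (Col9a1, Col24a1, Col28a1, Col4a3 and Col10a1) had 1 to 3 counts in all, and 10 of the 18 had under 20 counts over the 9 libraries. Together the 18 had 166 counts in sh-Pfkp, 117 in sh-Lin41 and 99 in sh-ctrl. Such counts do not allow absence to be told from a level below this depth.

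Set directly against each other, sh-Pfkp had 6 collagens higher and 3 lower than sh-Lin41 (background 27.4% higher, 27.8% lower and 55.1% in either direction). The median log2 fold change of the tested collagens was 0.06, against -0.01 over all genes. At 2-fold or more, 5 were higher (background 1.47%) and 0 lower (background 3.02%), but Col1a2, Col3a1 and Col5a2 among them passed the filter through sh-Pfkp alone and had to be higher. Higher in sh-Pfkp were Col3a1 (292 against 2 counts, ratio 154, 95% counting interval 42.3 to 1280), Col1a2 (28.8-fold), Col5a2 (13.1-fold), Col1a1 (4.14-fold), Col7a1 (2.24-fold) and Col18a1 (1.09-fold). Their edgeR adjusted p lay between 4.26e-15 and 8.83e-05. Lower in sh-Pfkp were Col5a1, at a log2 change of -0.60 (SE 0.0646, adjusted p = 1.68e-09 by edgeR), Col5a3 at -0.92 (SE 0.308, adjusted p = 0.0121 by edgeR) and Col8a2 at -0.85 (SE 0.338, adjusted p = 0.0328 by edgeR). On log2(FPKM + 1) with limma the calls of Col5a3, Col8a2 and Col18a1 were lost (adjusted p = 0.0922, 0.135 and 0.0639), and in DESeq2 that of Col8a2 (adjusted p = 0.0633). The Col5a3 call was also lost without sh-Lin41 1 (edgeR adjusted p = 0.193), and that of Col8a2 without sh-Pfkp 1, sh-Lin41 1 or sh-Lin41 2 (edgeR adjusted p = 0.19, 0.0739 and 0.0911).

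For the gene lists from here on, the shares over all genes are again 28.3% higher and 28.3% lower in sh-Pfkp, and 26.9% higher and 27.3% lower in sh-Lin41. Of 7 tested proteins that bind collagen fibrils, 6 were higher and 1 lower in sh-Pfkp, and 0 were higher and 2 lower in sh-Lin41. Dcn and Bgn among them passed the filter on low counts through sh-Pfkp alone, so they had to be higher there, and the count is a description. Dcn, the proteoglycan decorin that coats collagen I fibrils, had 22, 14 and 16 counts in sh-Pfkp and 0 in every sh-Lin41 and sh-ctrl library, at least 16.0-fold higher than in sh-ctrl against a floor of 3 counts over the group. Bgn, the related biglycan, had 70, 64 and 71 counts in sh-Pfkp, 2, 3 and 1 in sh-Lin41, and 4, 7 and 6 in sh-ctrl, and it was lower in sh-Lin41 than in sh-ctrl by a log2 change of -1.63 (SE 0.616, adjusted p = 0.0252 by edgeR). Fn1, the fibronectin on which fibrils assemble, had 123 ± 2.02 FPKM in sh-Pfkp, 112 ± 0.828 in sh-Lin41 and 113 ± 1.39 in sh-ctrl (SD, n = 3). Thbs1, which did not pass through sh-Pfkp alone, had 106, 94 and 85 counts in sh-Pfkp, 17, 5 and 12 in sh-Lin41, and 8, 9 and 6 in sh-ctrl. Its log2 change in sh-Pfkp was 3.50 (SE 0.28, adjusted p = 3.04e-12 by edgeR). The lower member in sh-Pfkp was Fbln1, at -0.13.

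Fibroblast and mesenchyme markers were called in both directions in each knockdown. Of 20 fibroblast and mesenchyme markers, 11 had enough reads, of which 4 were higher and 2 lower in sh-Pfkp, and 3 higher and 2 lower in sh-Lin41. In either direction this was 54.5% in sh-Pfkp, against 56.6% of all genes, and 45.5% in sh-Lin41, against 54.3%. Dcn is among the 4 higher in sh-Pfkp, and it passed the filter through sh-Pfkp alone and had to be higher there. Their summed level was 306 to 324 CPM in sh-Pfkp, 301 to 313 in sh-Lin41 and 257 to 262 in sh-ctrl, most of it Vim. Markers at 0 in a whole group numbered 1 in sh-Pfkp, 6 in sh-Lin41 and 7 in sh-ctrl. Postn had 28, 2 and 17 counts and Lum 3, 3 and 4 in sh-Pfkp, with 0 for both in all sh-Lin41 and sh-ctrl libraries. Pdgfra, a receptor of mesenchymal progenitors, was higher in both knockdowns, at log2 fold changes of 2.23 in sh-Pfkp and 1.21 in sh-Lin41. Against these, Pdgfrb was lower, at -1.68 in sh-Pfkp and -0.84 in sh-Lin41, and Thy1 was lower in sh-Pfkp at 0.501 of its sh-ctrl level. Fap was at 0 in all libraries, so it did not separate the groups.

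Blood and macrophage markers were higher in none of 4 tested members in sh-Pfkp and in 2 in sh-Lin41. Their summed level was 9.54 to 11.2 CPM in sh-Pfkp, 11.6 to 13.5 in sh-Lin41 and 9.59 to 11.5 in sh-ctrl. Of 10 listed, 1 was at 0 throughout sh-Pfkp, 6 throughout sh-Lin41 and 5 throughout sh-ctrl. Lyz2, a macrophage lysozyme named after its values were seen, had 10, 12 and 3 counts in sh-Pfkp and 0 in all other libraries. The part of such cells, or of their RNA, in the collagen values was not tested. Endothelial markers were called in both directions, 3 higher and 2 lower of 6 in sh-Pfkp and 1 higher and 2 lower in sh-Lin41, with sums of 49.3 to 53.2, 42.5 to 48.2 and 60.2 to 61.2 CPM in sh-Pfkp, sh-Lin41 and sh-ctrl. Endoderm markers, of which Lamb1 and Lama1 encode laminin chains, had 0 of 6 higher in either knockdown, with 3 lower in sh-Pfkp and 2 in sh-Lin41.

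Of 20 tested genes that hydroxylate and fold collagen chains, 3 were higher and 9 lower in sh-Pfkp, and 4 were higher and 11 lower in sh-Lin41. In either direction this was 60.0% in sh-Pfkp, against 56.6% of all genes, and 75.0% in sh-Lin41, against 54.3%. The median log2 change was -0.08 in sh-Pfkp and -0.12 in sh-Lin41. P4ha1, a catalytic subunit of prolyl 4-hydroxylase, had 36.4, 39.7 and 36.4 CPM in sh-Pfkp, 43.5, 42.1 and 46.1 in sh-Lin41, and 59.7, 60.6 and 61.0 in sh-ctrl. Its log2 change was -0.69 (SE 0.0473, adjusted p = 8.11e-14 by edgeR) in sh-Pfkp and -0.46 (SE 0.0457, adjusted p = 3.17e-10 by edgeR) in sh-Lin41. P4ha2, the alternative catalytic subunit, was lower at -0.97 and -0.81. Plod2, a lysyl hydroxylase of collagen ends, was lower at -0.48 and -0.26. P4hb, the shared beta subunit and the most abundant member, changed least among the called genes named here, at -0.09 and -0.06. Crtap, a partner of the prolyl 3-hydroxylase complex, was higher at 0.44 in sh-Pfkp and 0.15 in sh-Lin41. Sparc, a collagen-binding matrix protein, was higher in sh-Pfkp at 0.29 and lower in sh-Lin41 at -0.60.

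Of 12 tested genes that trim and crosslink secreted collagen, 3 were higher and 4 lower in sh-Pfkp, and 1 was higher and 3 lower in sh-Lin41. In either direction this was 58.3% in sh-Pfkp, against 56.6% of all genes, and 33.3% in sh-Lin41, against 54.3%. Lox, a lysyl oxidase that crosslinks fibrillar collagen, had 31, 12 and 14 counts in sh-Pfkp, 1, 4 and 4 in sh-Lin41, and 0, 1 and 2 in sh-ctrl. The sh-Pfkp libraries stood above all others, and Lox passed the filter through them alone, so that it had to be higher there. Loxl2, which crosslinks basement membrane collagen IV, had 18.7, 18.6 and 18.2 CPM in sh-Pfkp, 31.5, 30.2 and 34.7 in sh-Lin41, and 52.8, 54.6 and 53.9 in sh-ctrl. Its log2 change was -1.54 (SE 0.0568, adjusted p = 8.5e-21 by edgeR) in sh-Pfkp and -0.74 (SE 0.0510, adjusted p = 6.4e-14 by edgeR) in sh-Lin41. Tll1, a propeptide-removing protease, was higher in both at 1.51 and 1.86. Adamts14, which removes the amino-terminal propeptide, was lower in both at -0.49 and -0.55.

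**Figure D5:**
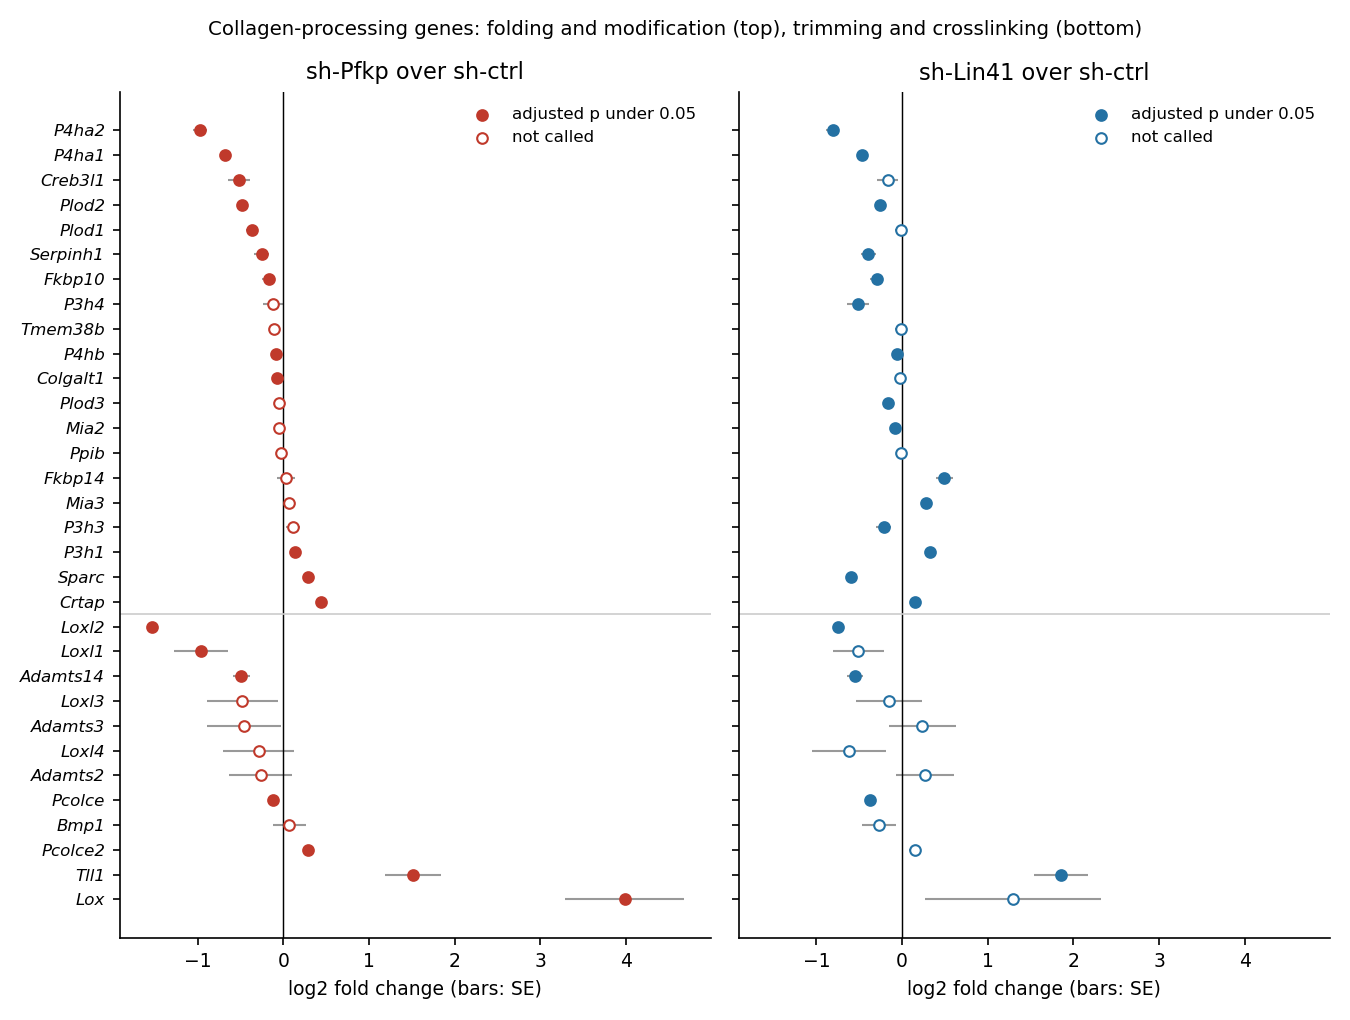
Log2 fold changes (points) with standard errors (bars) of the tested genes for folding and modification (above the line) and for trimming and crosslinking (below it), sh-Pfkp over sh-ctrl left and sh-Lin41 over sh-ctrl right, filled at an edgeR adjusted p under 0.05. P4ha1, P4ha2, Plod2 and Loxl2 lie below 0 in both panels, and Lox lies highest in sh-Pfkp.

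Collagen receptors were called in 5 of 6 tested members in sh-Pfkp, 2 higher and 3 lower, and in 4 in sh-Lin41, 1 higher and 3 lower. With 6 genes, these are 83.3% and 66.7% called, against 56.6% and 54.3% of all genes. Ddr2, a receptor kinase for fibrillar collagen, was higher by a log2 change of 1.60 (SE 0.295, adjusted p = 2.65e-05 by edgeR) in sh-Pfkp and 0.76 (SE 0.323, adjusted p = 0.0452 by edgeR) in sh-Lin41. Itga1, an integrin subunit for collagens, was higher in sh-Pfkp at 0.51 and lower in sh-Lin41 at -1.35. Ddr1, the epithelial receptor kinase, was lower at -0.24 and -0.97. Of the collagen-cleaving proteases and their inhibitors, none of 7 tested was higher, 5 were lower in sh-Pfkp and 3 in sh-Lin41, of which Mmp9 passed the filter through sh-ctrl alone and had to be lower. Among the lower genes were Timp3, a matrix-bound inhibitor, at -0.95 and -1.70 and Mmp2, a gelatinase, at -0.73 and -0.44.

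Genes of the TGF-beta pathway, which drives fibrillar collagen synthesis in fibroblasts, were called in both directions. Of 10 tested, 3 were higher and 5 lower in sh-Pfkp, and 1 was higher and 4 lower in sh-Lin41, so that 8 and 5 of 10 were called. Smad7, an inhibitor of the pathway, was lower at -0.69 (SE 0.0397, adjusted p = 8.74e-16 by edgeR) in sh-Pfkp and -0.23 (SE 0.0374, adjusted p = 4.08e-06 by edgeR) in sh-Lin41. Tgfb1, a ligand, was lower in sh-Pfkp at -0.71. Ccn2, a response gene of the pathway, was higher in sh-Pfkp at 0.42 and lower in sh-Lin41 at -0.52.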

How the data were processed

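Read counts per gene and FPKM for 9 libraries were deposited by the authors, 1 column each, per the file headers. The counts may be rounded estimates, since the submitters' processing notes name RSEM beside fastp 0.18.0, Bowtie2 2.2.8, HISAT2 and StringTie 1.3.1. Build, annotation and strand setting: not given in the sources used here. The authors' deposited tables also hold log2 ratios of mean FPKM, p-values and FDR. The sh-ctrl columns of the 2 tables held the same values, and the 9 libraries were fitted together.

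Counts were tested with edgeR 4.0.16 in R 4.3.3 (filterByExpr with a minimum of 10 counts in 3 libraries, TMM, quasi-likelihood F test, Benjamini-Hochberg adjusted p under 0.05 over 13158 genes), a procedure checked on simulated data. SE is the absolute log2 fold change over the square root of F. CPM use TMM-scaled totals. Counting intervals are exact conditional binomial at 95%. A group at 0 was set to a floor of 3 counts. Intervals and floors cover counting error only. Alternatives used DESeq2 1.42.0, limma 3.58.1, other scaling, filters, pseudocounts of 1 and 0.1, a replicate block and the omission of each library.

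Collagens called against control at 2-fold or more, called in opposite directions, or among the 6 highest in FPKM are given per library. From other lists, up to 4 called genes with the smallest adjusted p and 2 with the highest FPKM were eligible for naming. Postn, Lum, Fap and Sox9 fell outside that rule and were chosen after their values were seen. Col6a5, Col4a5, Col5a3, Col8a1 and the collagen VI chains are shown in more detail than the rule asks. Members and lists were chosen with earlier results of these data known.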

Additional observations from a re-analysis of the deposited data

Results flagged for a closer look

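Col5a1 was flagged because the knockdowns moved it in opposite directions relative to sh-ctrl, in every library of each on the scale of CPM. On the FPKM scale the sh-Pfkp and sh-ctrl libraries overlapped, and the sh-Pfkp difference did not pass limma's test at a pseudocount of 1 or 0.1 (adjusted p = 0.504 and 0.506). The direct comparison gave a log2 difference of -0.60 for sh-Pfkp minus sh-Lin41 (SE 0.0646, edgeR adjusted p = 1.68e-09), with 20.9 ± 0.861 CPM in sh-Pfkp and 31.8 ± 1.84 CPM in sh-Lin41 (SD, n = 3 each). All 3 sh-Pfkp libraries lay below all 3 sh-Lin41 libraries.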

How the results depend on the processing

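Among the fits run, no named collagen that was called changed direction. With a 2-fold minimum, calls over all genes fell to 297 higher and 560 lower in sh-Pfkp, 268 and 292 in sh-Lin41, and 193 and 398 in sh-Pfkp against sh-Lin41, and collagen calls to 1 lower in sh-Pfkp, 1 higher and 1 lower in sh-Lin41, and 0 lower in sh-Pfkp against sh-Lin41, as a stricter threshold must. On FPKM with limma, at a pseudocount of 1 or 0.1, 1 collagen was lower in sh-Pfkp against sh-Lin41. The split of all calls moved there to 2507 higher and 3802 lower or 2534 and 3848 in sh-Pfkp against sh-ctrl, beside 3721 and 3730 in edgeR, and to 2409 and 3490 or 2407 and 3516 in sh-Pfkp against sh-Lin41, beside 3603 and 3652. Summed FPKM in place of summed CPM gave a sh-Pfkp to sh-ctrl ratio of 1.53 in place of 1.28 for fibrillar collagens and 0.90 in place of 0.939 for the others. The cause of these shifts was not tested. Leaving out 1 library gave 2 to 5 collagens higher in sh-Lin41, with 5 without sh-ctrl 2, and 1 to 5 lower in sh-Pfkp against sh-Lin41, with 1 without sh-Lin41 1 and 5 without sh-Lin41 3.

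The sample titles number the replicates without stating a shared culture or day. Deviations of same-numbered sh-Pfkp and sh-ctrl libraries correlated at 7.26e-05, 0.125 and 0.0887 across 13158 genes, not all over 0.1, so the libraries were taken to share only a number. That depended on the genes used, since the correlations were 0.111, 0.311 and 0.455 over 8630 genes at a mean of 10 CPM or more and -0.122, -0.0595 and -0.00448 over 4229 genes at 50 CPM or more. With the replicate number as a block, calls over all genes came to 3714 higher and 3721 lower in sh-Pfkp, 3523 and 3586 in sh-Lin41, and 3570 and 3626 between the knockdowns, and collagen calls stayed at 6 and 6, 3 and 3, and 6 and 3. At this depth 18 of 42 members had too few reads to test.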
